A study of Mus musculus with 19 samples.

Results

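The genes described here are 48 histone-modifying enzymes and REST corepressors, which were listed by name and kept if they had 10 or more counts in at least 4 of the 19 mice. All 48 met this rule, with at least 79 counts in every mouse, and all 48 were among the 18521 genes tested of 54232 gene identifiers counted. They comprise 3 class I, 4 class IIa and 2 class IIb histone deacetylases (HDACs), Hdac11 as the sole class IV HDAC, 6 sirtuins, 7 acetyltransferases, 6 Polycomb genes, 4 H3K4 methyltransferases, 4 H3K9 and H4K20 methyltransferases, 7 demethylases, and REST with 3 corepressors.

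Histone acetyltransferases and deacetylases add and remove acetyl groups on histone tails, and histone methyltransferases and demethylases do the same with methyl groups at defined lysines. REST is a zinc finger repressor of neuronal genes that recruits Rcor1, Sin3a and histone deacetylases to its target sites. In the Huntington's disease (HD) literature, mutant huntingtin (HTT) has been studied in relation to the coactivator Crebbp, to HDACs and sirtuins as drug targets, and to the nuclear entry of REST. The question put to the data was whether the mRNA of these enzymes differs between mice that express full-length mutant HTT and mice that express only N-terminal fragments of it.

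Striatal RNA came from 6-month-old mice on the C57/BL/6 background, of which 7 were WT and 4 each were KI-96, KI-571 and KI-FL. KI-FL mice carry the HD140Q knock-in allele, in which the mouse Htt gene with an expanded polyQ repeat is expressed from its own promoter, and are heterozygous. KI-96 and KI-571 mice are heterozygous for the same allele after CRISPR/Cas9 truncation, so that it encodes a shorter and a longer N-terminal fragment, respectively. The truncated allele is expressed in all cells that use this promoter. By western blot, the paper saw a small stable fragment of the same size in the brains of all KI genotypes, KI-FL included. By the study's methods, the KI-571 line goes back to a sole founder and the KI-96 line to several. The labels do not say which mice shared a litter, and striatal tissue holds many cell types, so that fewer cells of a type and less RNA per cell cannot be told apart.

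Library depth on genes ran from 12669809 to 26388542 counts. The Htt gene was measured at 168 to 195 CPM (the read count scaled to a common library size, with TMM factors) in WT, at 143 to 239.9 CPM in KI-96, at 104 to 141 CPM in KI-571 and at 137 to 179 CPM in KI-FL mice. The 12 markers of striatal projection neurons were detected in every mouse, with a summed level of 6660 to 11036 CPM. KI-96 replicate 3 stood apart with 24.2% of its reads outside genes, where the rest of its genotype had 11.8% to 12.7%. KI-FL replicate 4 had 3186 tested genes at 0 counts, where the rest of its genotype had 134 to 222. WT replicate 3 had a cortical neuron marker sum of 1095 CPM, the highest of the 19 mice. All KI-96 mice had high Xist and near-absent Y-linked transcripts, as did 1 WT and 1 KI-FL mouse, so that in KI-96 against WT genotype and sex cannot be told apart for 6 of the 7 WT mice.

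To place the genes on a common scale, WT levels were expressed as CPM per kb of merged exon length. They ranged from 1.32 to 42.3 CPM per kb with a median of 7.13, against 3.47 for all genes tested. Ehmt2, which places mono- and dimethyl marks on H3K9, stood highest with 42.3 CPM per kb, at the 94.7th percentile of tested genes. It was followed by Sirt2, a tubulin and histone deacetylase abundant in myelinating cells, with 32.5, by Hdac11 with 26.4 and by Hdac5 with 22.3 CPM per kb. Rest was the lowest of the 48 with 1.32 CPM per kb, and the Polycomb methyltransferase Ezh2 was close to it with 1.44 CPM per kb. Ezh1, the other H3K27 methyltransferase, was measured at 10.3 CPM per kb. Among acetyltransferases, Kat2a led with 20.1 CPM per kb, while Crebbp and Ep300 had 6.97 and 6.28 CPM per kb. The corepressor Ncor1 had 18.3 and Rcor1 5.17 CPM per kb. The spread among the 7 WT mice, as a coefficient of variation of the CPM, had a median of 8.98% over the 48 genes and was lowest for the demethylase Kdm1a at 2.54% and highest for Rest at 24.1%.

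**Figure D1:**
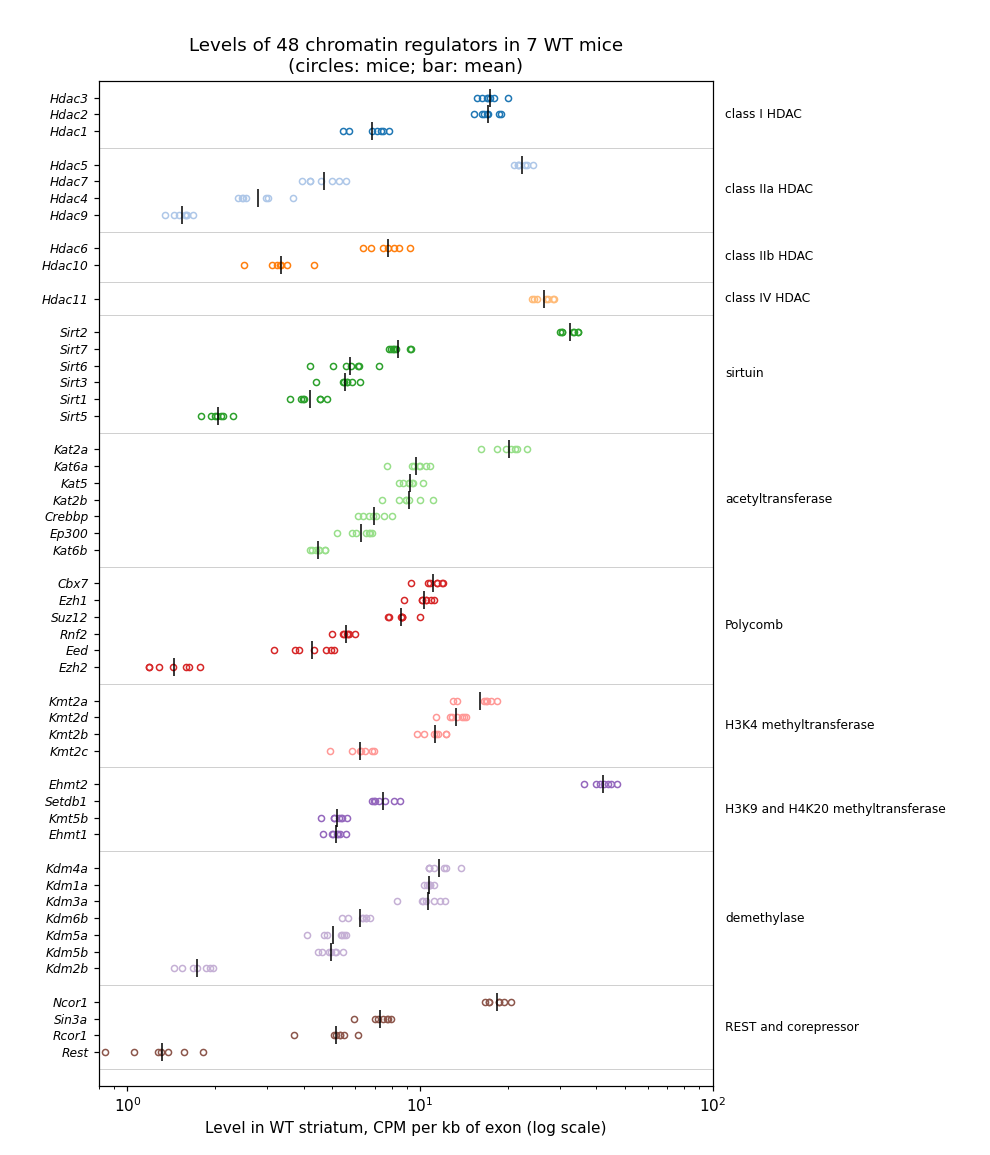
Level of each of the 48 genes in the 7 WT mice, in CPM per kb of merged exon length on a log axis, grouped by enzyme class; circles are mice and bars are means. Ehmt2 has the highest mean with 42.3 CPM per kb and Rest the lowest with 1.32 CPM per kb.

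The enzymes differed little between genotypes. The ratio of the highest to the lowest genotype mean had a median of 1.15 over the 48 genes and reached 1.42 for Hdac9. The genotype with the highest mean was KI-FL for 21 genes, KI-96 for 14, WT for 10 and KI-571 for 3. By the quasi-likelihood test of edgeR, with p-values adjusted by Benjamini-Hochberg over all genes tested, none of the 48 had an adjusted p under 0.05 in any of the 6 comparisons between genotypes. Among all genes, 0.027% were called in KI-96 against WT, 0.0324% in KI-571 against WT, 0.194% in KI-FL against WT, 0.0054% in KI-96 against KI-571, 0% in KI-96 against KI-FL and 0.0864% in KI-571 against KI-FL. The counts of the 48 at an unadjusted p under 0.05 are given with each comparison below. With DESeq2 in place of edgeR, 1 gene (Kdm3a in KI-FL against WT, where DESeq2 called 509 of 18521 genes) passed and the counts in the other 5 comparisons stayed at 0.

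The 95% intervals say how large a difference could have been missed. In KI-FL against WT, the whole interval lay within a 1.5-fold change in either direction for 43 of 48 genes, and within a 2-fold change for all 48. The corresponding counts within a 1.5-fold change were 45 in KI-96 and 47 in KI-571 against WT. The widest interval was that of Hdac10, a gene of 11.3 CPM in WT, with a half-width of 0.44 on the log2 scale in KI-FL against WT, and the median half-width was 0.23.

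**Figure D2:**
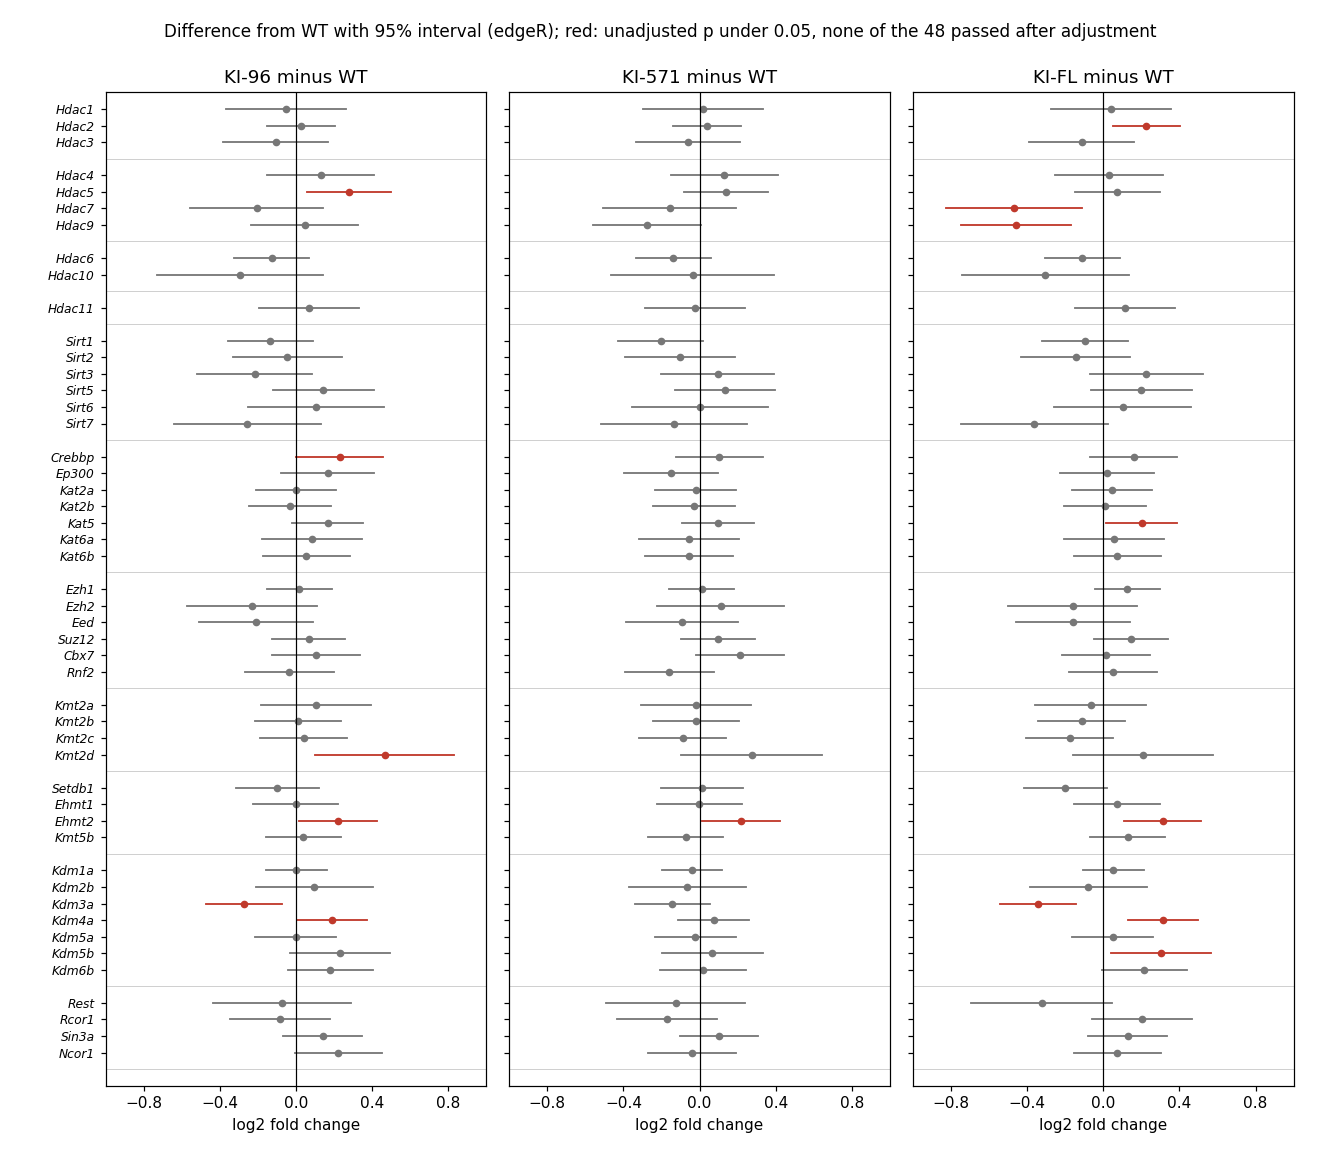
Log2 fold change against WT with its 95% interval from edgeR for each of the 48 genes, by enzyme class from class I HDAC at the top to REST and corepressor at the bottom, with a panel each for KI-96, KI-571 and KI-FL. Red marks an unadjusted p under 0.05 (6, 1 and 8 genes), and no gene passed after adjustment.

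In KI-FL mice the genes nearest to the threshold were demethylases (Kdm3a, Kdm4a and Kdm5b), class IIa HDACs (Hdac7 and Hdac9), Ehmt2, Hdac2 and Kat5. At an unadjusted p under 0.05, 8 of 48 genes (16.7%) were counted, 5 higher and 3 lower, which equals the 16.7% of all genes. The median log2 fold change of the 48 was 0.05, against -0.03 over all genes tested. The 2 demethylases Kdm3a and Kdm4a had the smallest p-values.

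Kdm3a removes methyl groups from H3K9 and is known as a hypoxia-induced gene. It lies on chromosome 6 at 71588972 to 71632990 on the minus strand (GRCm38). Its level was 74.3, 69.4, 66.7 and 64.6 CPM in the 4 KI-FL mice, while the 7 WT mice ranged from 68.5 to 100.3 with a median of 86.1 CPM. All KI-FL mice lay below 6 of the 7 WT mice, and only WT replicate 3 overlapped them. This gave a log2 fold change of -0.34 ± 0.10 (SE; edgeR, unadjusted p = 0.00178, adjusted p = 0.104). KI-96 mice had 73.2, 80.1, 73.5 and 62.5 CPM, for a log2 fold change of -0.27 against WT (edgeR, unadjusted p = 0.0099, adjusted p = 0.607), and KI-571 mice lay between with 71.4 to 85.4 CPM. All KI genotypes were compared with the same WT mice.

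Kdm4a acts on trimethylated H3K9 and H3K36. It lies on chromosome 4 at 118136957 to 118180043 on the minus strand. It was measured at 75.6, 95.3, 80.5 and 83.4 CPM in KI-FL mice, against 61.9 to 80.0 (median 64.6) CPM in WT. The group ranges overlapped through WT replicate 2 alone. Kdm4a thus had a log2 fold change of 0.31 ± 0.09 (SE; edgeR, unadjusted p = 0.0019, adjusted p = 0.104). KI-96 mice had 70.3 to 80.6 CPM, and KI-571 mice had 81.0 CPM in replicate 1 and 67.1 to 67.8 CPM in the others.

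Hdac9, a class IIa HDAC that binds MEF2 factors, lies on chromosome 12 at 34047580 to 34917095 on the minus strand. Its level in KI-FL mice was 13.7, 16.7, 21.3 and 13.6 CPM, against 19.8 to 24.5 (median 23.0) CPM in WT. Replicate 3 of KI-FL lay within the WT range and the other 3 mice lay below it. The log2 fold change was -0.46 ± 0.14 (SE; edgeR, unadjusted p = 0.0034, adjusted p = 0.127). KI-571 mice had 16.2 to 20.2 CPM, and KI-96 mice were spread from 17.5 to 27.5 CPM. The direct comparison of KI-96 with KI-FL gave a log2 fold change of 0.50 ± 0.15 (SE; edgeR, unadjusted p = 0.0038, adjusted p = 0.406).

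Ehmt2, also called G9a, lies on chromosome 17 at 34898469 to 34914052 on the plus strand. KI-FL mice had 286, 262, 295 and 308 CPM, all above the WT range of 199.98 to 259 CPM. It was 1 of 3 genes of the 48 whose KI-FL and WT mice did not overlap (6.25%, against 5.29% of all genes). The log2 fold change was 0.31 ± 0.10 (SE; edgeR, unadjusted p = 0.0043, adjusted p = 0.135). KI-96 mice had 248 to 289.8 CPM and KI-571 mice 212 to 320.4 CPM, with a log2 fold change of 0.22 in both (edgeR, unadjusted p = 0.034 and 0.037, adjusted p = 0.653 and 0.590). Without KI-571 replicate 1, the value in KI-571 was 0.12 (edgeR, unadjusted p = 0.22).

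**Figure D3:**
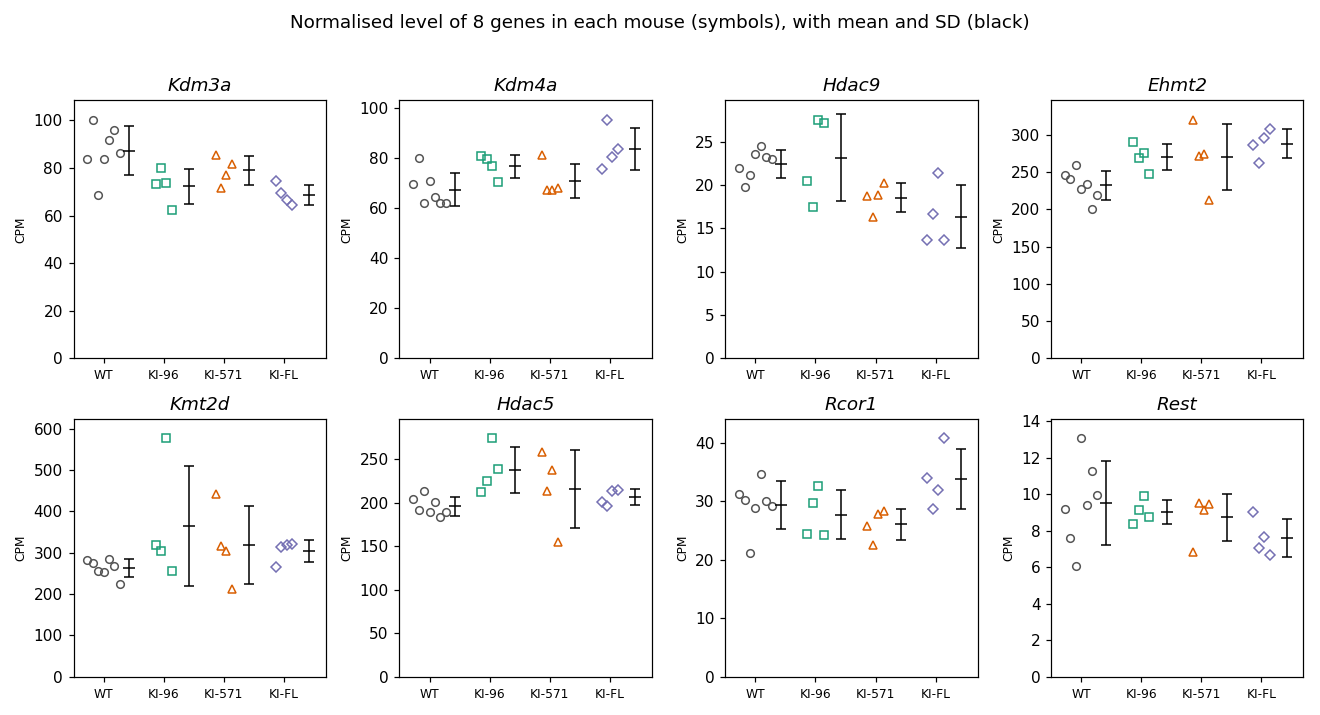
CPM of 8 of the genes in each mouse, from 0, by genotype (circles WT, squares KI-96, triangles KI-571, diamonds KI-FL), with the mean and SD of each genotype in black. Kdm3a is lower and Kdm4a and Ehmt2 are higher in KI-FL than in most WT mice, and 1 KI-96 mouse stands at 577 CPM for Kmt2d.

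The sequences before the start sites of these 4 genes are shown because they carry the smallest p-values in KI-FL against WT. They are from RefSeq on GRCm38.p6, run 5′ to 3′ on the strand of the gene, and stop at the outermost base of any annotated exon. They are, in order, chr6:71632991-71633167 (177 bases, minus strand), chr4:118180044-118180293 (250 bases, minus strand), chr12:34917096-34917345 (250 bases, minus strand) and chr17:34898224-34898468 (245 bases, plus strand). Capitals mark matches on either strand to the letters GGGCGG (the GC box), CCAAT (named after its letters), TGACG (the cAMP response element core) and ACGTG (the hypoxia response element core).
Kdm3a: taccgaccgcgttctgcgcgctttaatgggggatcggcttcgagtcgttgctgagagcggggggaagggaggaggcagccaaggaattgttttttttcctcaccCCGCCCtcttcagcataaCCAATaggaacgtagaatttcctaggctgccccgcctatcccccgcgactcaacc
Kdm4a: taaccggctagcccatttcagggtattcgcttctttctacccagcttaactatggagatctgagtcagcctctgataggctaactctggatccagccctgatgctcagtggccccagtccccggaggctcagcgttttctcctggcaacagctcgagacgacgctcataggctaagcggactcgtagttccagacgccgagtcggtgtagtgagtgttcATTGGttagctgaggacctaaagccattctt
Hdac9: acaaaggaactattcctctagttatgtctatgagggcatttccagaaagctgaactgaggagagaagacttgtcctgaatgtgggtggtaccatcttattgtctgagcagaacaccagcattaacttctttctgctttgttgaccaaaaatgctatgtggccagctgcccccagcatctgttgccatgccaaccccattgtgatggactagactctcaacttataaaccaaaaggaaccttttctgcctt
Ehmt2: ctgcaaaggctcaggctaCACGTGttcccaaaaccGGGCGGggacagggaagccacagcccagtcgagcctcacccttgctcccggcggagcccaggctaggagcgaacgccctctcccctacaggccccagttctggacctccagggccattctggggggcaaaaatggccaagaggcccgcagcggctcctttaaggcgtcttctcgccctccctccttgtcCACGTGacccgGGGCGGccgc
Kdm3a held 1 GC box and 1 CCAAT box, Kdm4a held 1 CCAAT box, and the Hdac9 window held none of the 4 motifs. Ehmt2 held 2 GC boxes and 4 matches to ACGTG, which are 2 sites read on both strands because CACGTG contains the letters in either direction. GC content was 57.6% for Kdm3a, 53.6% for Kdm4a, 44.4% for Hdac9 and 66.9% for Ehmt2. A window was matched for 40 of the 48 genes. Of these, 32 held a GC box, 19 a CCAAT box, 12 the TGACG core and 10 the ACGTG core in at least 1 window of 250 bases (80.0%, 47.5%, 30.0% and 25.0%). Among all 27025 genes with a window, the shares were 35.4%, 37.5%, 19.8% and 18.5%, and among the 32851 windows 32.7%, 33.8%, 17.8% and 16.6%. The 40 genes had 58 windows with a median GC content of 62.6%, against 52.4% over all windows. The part of base composition and of the number of windows per gene in these shares was not tested. These matches are descriptions of letters. Kdm3a and Kdm4a, whose differences from WT had opposite signs, each held a CCAAT box.

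Of the other class IIa HDACs, Hdac7 had 18.9, 18.2, 32.1 and 22.1 CPM in KI-FL mice, against 26.7 to 37.8 (median 31.1) CPM in WT, with a log2 fold change of -0.47 ± 0.17 (SE; edgeR, adjusted p = 0.184). The 2 remaining members, Hdac4 and Hdac5, had log2 fold changes of 0.03 and 0.07. Hdac4 was measured at 37.4 to 55.3 CPM in KI-FL and 37.8 to 58.4 CPM in WT mice, so the ranges overlapped. An opposite-strand lincRNA covers 22.4% of the exon bases of Hdac4, and the strand setting of the counting is not given in the sources used here, so that reads of the pair cannot be told apart.

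Class I HDACs form the catalytic core of corepressor complexes. Hdac2 had 94.3, 90.7, 80.2 and 92.03 CPM in KI-FL mice and 68.3 to 84.2 (median 75.5) CPM in WT. Of the KI-FL mice, 3 lay above every WT mouse. Its log2 fold change was 0.23 ± 0.09 (SE; edgeR, adjusted p = 0.197). Hdac1 and Hdac3 had values of 0.04 and -0.11 in the same comparison. Hdac3, which works with Ncor1, was measured at 59.0 to 72.4 CPM in KI-FL and at 63.4 to 81.0 CPM in WT mice. In KI-96 replicate 3 and KI-571 replicate 1 it was lowest, with 46.5 and 48.1 CPM.

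Class IIb and class IV HDACs showed wide or overlapping ranges. Hdac6, the X-linked tubulin deacetylase, was measured at 40.1 to 43.8 CPM in KI-FL, 38.4 to 42.5 in KI-571, 37.0 to 44.6 in KI-96 and 37.3 to 53.7 CPM in WT mice. Its log2 fold changes against WT were -0.11, -0.14 and -0.13 for KI-FL, KI-571 and KI-96. Hdac10 had a log2 fold change of -0.30 in KI-FL (edgeR, adjusted p = 0.473) and of -0.29 in KI-96 (edgeR, adjusted p = 0.772). Hdac11 was measured at 86.8 to 127 CPM in KI-FL and 92.99 to 111 CPM in WT mice.

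Sirtuins are NAD-dependent deacylases of the nucleus (Sirt1, Sirt6, Sirt7), cytoplasm (Sirt2) and mitochondria (Sirt3, Sirt5). None of the 6 had an unadjusted p under 0.05 against WT in any KI genotype. Sirt7 was measured at 35.9, 37.1, 31.3 and 30.5 CPM in KI-FL mice, all below the WT range of 40.4 to 48.05 CPM, with a log2 fold change of -0.36. Its values in KI-96 were spread from 22.3 to 50.4 CPM and in KI-571 from 25.4 to 46.5 CPM. Sirt1 had 19.8 to 23.2 CPM in KI-FL and 19.2 to 25.7 CPM in WT mice, and its largest difference from WT was in KI-571 at -0.21 ± 0.11 (SE; edgeR, adjusted p = 0.705). Sirt2 had 164 ± 10.3 CPM in WT (SD, n = 7), with a range of 151 to 175 CPM. It ranged from 101 to 195 CPM in KI-96, 135 to 166 in KI-571 and 108 to 171 CPM in KI-FL mice. KI-96 replicate 3 was the lowest of the 19 mice and KI-96 replicate 4 the highest, and the 108 CPM was that of KI-FL replicate 4. Sirt3 differed between KI-96 (21.8 to 30.9 CPM) and KI-FL (28.3 to 51.7 CPM) with a log2 fold change of -0.44 ± 0.16 (SE; edgeR, unadjusted p = 0.013, adjusted p = 0.459). This comparison rested on KI-96 replicate 3, the lowest of the 19 mice, and KI-FL replicate 4, the highest. It was -0.32 without the former (edgeR, unadjusted p = 0.059) and -0.27 without the latter (edgeR, unadjusted p = 0.095).

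The 7 acetyltransferases all had a log2 fold change above 0 in KI-FL, from 0.01 to 0.20, as did 31 of the 48 genes and 8534 of the 18521 genes tested. At an unadjusted p under 0.05, 1 of the 7 (14.3%) was counted, against 16.7% of all genes. This was Kat5 (Tip60), with 34.7 to 40.1 CPM against 29.8 to 35.9 CPM in WT and a log2 fold change of 0.20 ± 0.09 (SE; edgeR, adjusted p = 0.266). Exons of Rnaseh2c on the opposite strand cover 12.1% of the Kat5 exon bases. Crebbp, the CREB-binding coactivator, was measured at 113, 116, 107 and 85.3 CPM in KI-FL, against 83.1 to 108 (median 93.7) CPM in WT mice. The log2 fold change of Crebbp was 0.16 (95% interval -0.07 to 0.39) in KI-FL and 0.10 (-0.13 to 0.33) in KI-571. Its paralog Ep300 had 0.02 (-0.23 to 0.27) in KI-FL and -0.15 (-0.40 to 0.10) in KI-571. Kat2a was the most even of the named genes, with genotype means of 68.8 to 72.1 CPM.

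Polycomb genes and H3K4 methyltransferases, which work in opposite directions on gene silencing, showed no gene with an unadjusted p under 0.05 in KI-FL against WT. Ezh2 was measured at 6.25 to 10.2 CPM in KI-FL and 7.91 to 11.9 CPM in WT mice, with a log2 fold change of -0.16 (95% interval -0.50 to 0.18). Cbx7, a reader of trimethylated H3K27, had its highest mean in KI-571, at 83.2 ± 10.49 CPM (SD, n = 4) against 71.8 ± 5.98 CPM in WT (SD, n = 7), and a log2 fold change of 0.21 (edgeR, adjusted p = 0.698). Kmt2a had 228 to 306 CPM in KI-FL and 217 to 304 CPM in WT mice. Of the demethylases not yet given, Kdm5b (H3K4) had 100.4, 95.005, 95.5 and 114 CPM in KI-FL, all above the WT range of 74.2 to 90.6 CPM, with a log2 fold change of 0.31 ± 0.13 (SE; edgeR, adjusted p = 0.232) that was 0.24 without KI-FL replicate 4 (edgeR, unadjusted p = 0.094). Kdm5a, which acts on the same mark, had 66.1 to 84.1 CPM in KI-FL and 58.1 to 78.9 CPM in WT mice, and its log2 fold change was 0.05.

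Rest itself was measured at 9.03, 7.05, 7.68 and 6.66 CPM in KI-FL mice, against 6.08 to 13.1 (median 9.41) CPM in WT. All KI-FL values lay inside the WT range. The log2 fold change was -0.32 (95% interval -0.69 to 0.05, edgeR, unadjusted p = 0.083, adjusted p = 0.364). KI-96 mice had 8.37 to 9.92 CPM and KI-571 mice 6.82 to 9.52 CPM. The corepressor Rcor1, which bridges REST to Kdm1a and the class I HDACs, had 34.0, 28.7, 31.9 and 40.9 CPM in KI-FL and 25.7, 22.6, 27.8 and 28.3 CPM in KI-571 mice. These ranges did not overlap, and the log2 fold change of KI-571 against KI-FL was -0.38 ± 0.14 (SE; edgeR, unadjusted p = 0.016, adjusted p = 0.461). The WT range of 21.1 to 34.8 CPM covered all KI-571 mice and all KI-FL mice but replicate 4, the highest of the 19 mice. Without KI-FL replicate 4 the log2 fold change was -0.27 ± 0.14 (SE; edgeR, unadjusted p = 0.072). Ncor1 was nearly constant in KI-FL mice at 247 ± 1.57 CPM (SD, n = 4) and had 235 ± 17.8 CPM in WT (SD, n = 7).

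Beside these differences, markers of other cells were measured in the same mice. The 10 oligodendrocyte markers summed to 10229 to 11837 CPM in KI-FL and 10852 to 15496 CPM in WT mice, with none at 0. The 7 astrocyte markers summed to 3717 to 4077 CPM in KI-FL and 3918 to 4705 CPM in WT mice, also with none at 0. The microglial and endothelial sums overlapped between these genotypes. The 5 choroid plexus markers summed to 3022 CPM in KI-FL replicate 1 and to 36.6 to 186 CPM in the other 3 KI-FL mice, against 45.8 to 408 CPM in WT, and 2 of them were at 0 in replicate 4. The 5 blood markers summed to 43.5 to 103 CPM in KI-FL and 79.5 to 214 CPM in WT mice. Their part in the KI-FL results was not tested. With WT replicates 1 to 4 only, 6 of 48 genes had an unadjusted p under 0.05, beside 1540 of 18128 genes tested. The log2 fold changes were then -0.30 for Kdm3a, 0.23 for Kdm4a, -0.41 for Hdac9 and 0.24 for Ehmt2 (edgeR, unadjusted p = 0.018, 0.038, 0.0265 and 0.0499). With KI-FL replicate 4 also left out, a setting chosen after the data were seen, 2 of 48 genes had an unadjusted p under 0.05. This fit kept fewer mice, and its count over all genes is not given here, so the 2 genes are not compared with the count in all mice.

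KI-571 mice had the fewest genes past an unadjusted p under 0.05 of the 3 KI genotypes. A single gene of the 48 (2.08%), Ehmt2, had an unadjusted p under 0.05, against 7.72% of all genes tested, and no gene separated the groups (0%, against 1.55% of all genes). This count was 0 without WT replicate 4, 6 or 7 or KI-571 replicate 2 or 3, 2 without WT replicate 2, KI-96 replicate 2 or KI-FL replicate 3 or 4, 3 without WT replicate 3 or KI-96 replicate 3, and 5 without KI-571 replicate 4. These counts stand without the share of all genes in the same fit and are not read as a result about the 48. The median log2 fold change was -0.02 and the values ranged from -0.28 for Hdac9 to 0.27 for Kmt2d. Without KI-571 replicate 4 the median was 0.01, with 25 of the 48 genes above 0 in place of 20, and without KI-571 replicate 1 the value of Kmt2d was 0.07. The choroid plexus markers summed to 5087 and 5331 CPM in KI-571 replicates 2 and 4 and to 46.8 and 201 CPM in the other KI-571 mice. The blood markers summed to 163 to 483 CPM in KI-571 mice. The part of both in the KI-571 values was not tested.

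KI-96 mice were compared with WT by the same counts. At an unadjusted p under 0.05, 6 of 48 genes (12.5%) were counted, 5 higher and 1 lower, against 7.45% of all genes, and no gene separated the groups (0%, against 1.24% of all genes). These were Kdm3a, Kmt2d, Hdac5, Ehmt2, Kdm4a and Crebbp. The count was 2 without KI-96 replicate 3, 3 without KI-96 replicate 1, KI-96 replicate 2 or WT replicate 7, and 11 without KI-96 replicate 4. The share of all genes in these fits is not set beside these counts, so they are not read as a result about the 48 genes.

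Kmt2d, an H3K4 methyltransferase of enhancers, was measured at 318, 304, 577 and 256 CPM in KI-96 mice, against 225 to 285 (median 267) CPM in WT. The value of 577 CPM was that of replicate 3, and KI-571 replicate 1 was the next highest of all mice with 441 CPM. The log2 fold change was 0.47 ± 0.18 (SE; edgeR, unadjusted p = 0.015, adjusted p = 0.629) and was 0.15 ± 0.14 (SE) without replicate 3. Hdac5, a class IIa HDAC of neurons, had 213, 225, 275 and 239 CPM in KI-96, against 183 to 214 (median 192) CPM in WT mice. Its log2 fold change was 0.28 ± 0.11 (SE; edgeR, adjusted p = 0.629) and was 0.20 without replicate 3. For Crebbp the value moved from 0.23 to 0.10, while for Kdm3a it was -0.27 with and -0.28 without that mouse, for Ehmt2 0.22 with and 0.21 without it, and for Kdm4a 0.19 in both cases. Kdm4a had an unadjusted p of 0.046 with all mice and 0.068 without that mouse (edgeR).

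In KI-96 replicate 3 the longer genes tended to be higher than in the rest of its genotype, and the shorter genes lower. This mouse had the highest CPM of all 19 mice for 12 of the 48 genes and the lowest for 7. The genes with the highest value there included Kmt2a, Kmt2c, Kmt2d, Crebbp, Ep300 and Ncor1, and those with the lowest included Hdac2, Hdac3, Hdac10, Hdac11, Sirt2 and Sirt3. Against the mean of the other KI-96 mice, all 13 genes with over 10 kb of merged exons were higher, by a median log2 difference of 0.44, and 9 of 12 genes under 5 kb were lower, with a median of -0.26. Across the 48 genes the difference had a Spearman correlation of 0.78 with exon length, given as a description since the genes share 1 library. The lowest differences were those of Sirt2 and Sirt7 (-0.82 and -0.81), at 5.035 and 5.148 kb. In the same mouse the oligodendrocyte markers summed to 8872 CPM and the microglial markers to 235 CPM, both the lowest of the 19 mice. The part of cell types in these differences was not tested. The genes described here have a long merged exon length, with a median of 6.58 kb against 3.85 kb for all genes tested. This length joins all annotated exons of a gene and can exceed that of any transcript.

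KI-571 replicate 1 showed the same order of long and short genes, with a Spearman correlation of 0.65 over the 48 genes against the other KI-571 mice. The mean log2 CPM of the 24 longer genes minus that of the 24 shorter genes was 1.12 in KI-96 replicate 3 and 0.91 in KI-571 replicate 1, and lay between 0.46 and 0.71 in the other 17 mice. The share of reads on no gene was 24.2% in the first and 15.5% in the second of these mice, against 11.1% to 16.0% in the other 17. RNA integrity values were not used here, and the part of RNA quality in this order was not tested.

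**Figure D4:**
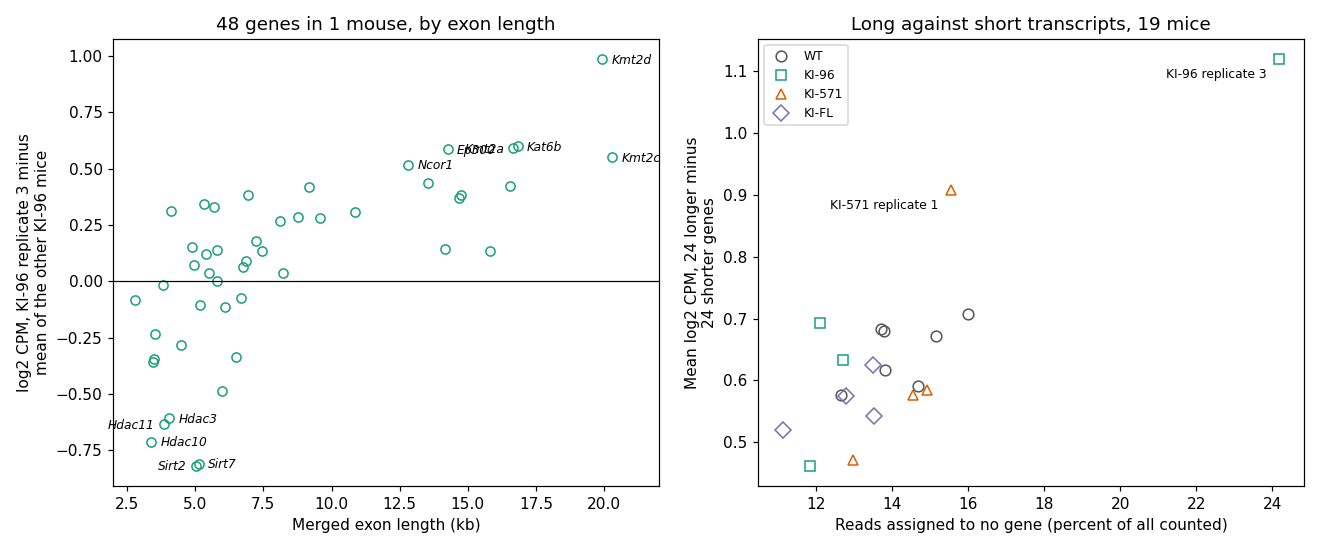
Left, difference of each of the 48 genes in KI-96 replicate 3 from the mean of the other KI-96 mice (log2 CPM) against merged exon length in kb. Right, mean log2 CPM of the 24 longer minus the 24 shorter genes against the share of counted reads assigned to no gene, for the 19 mice by genotype. KI-96 replicate 3 stands at 1.12 and 24.2%, and KI-571 replicate 1 at 0.91.

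In the comparison of KI-96 with WT the log2 fold changes of the 48 genes had a Spearman correlation of 0.38 with exon length, against 0.16 over 18509 genes, and without replicate 3 the value over the 48 was -0.09. It moved from 0.49 to -0.21 in KI-96 against KI-571 and from 0.43 to -0.10 in KI-96 against KI-FL when that mouse was left out. In KI-571 against WT it was 0.02 with all mice and -0.42 without KI-571 replicate 1. The H3K4 methyltransferases, whose exons span 9.60 to 20.3 kb, had a class mean of 8.03 log2 CPM in KI-96 replicate 3 and of 7.18 to 7.69 in the other 18 mice. The class I HDACs, at 3.44 to 4.47 kb, had 5.28 log2 CPM there, below the 5.37 to 5.83 of the other 18 mice. The REST and corepressor class was lowest in WT replicate 3, at 4.99 against 5.16 to 5.59 in the other 18 mice, and that mouse had the lowest Rcor1 of all, at 21.1 CPM.

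**Figure D5:**
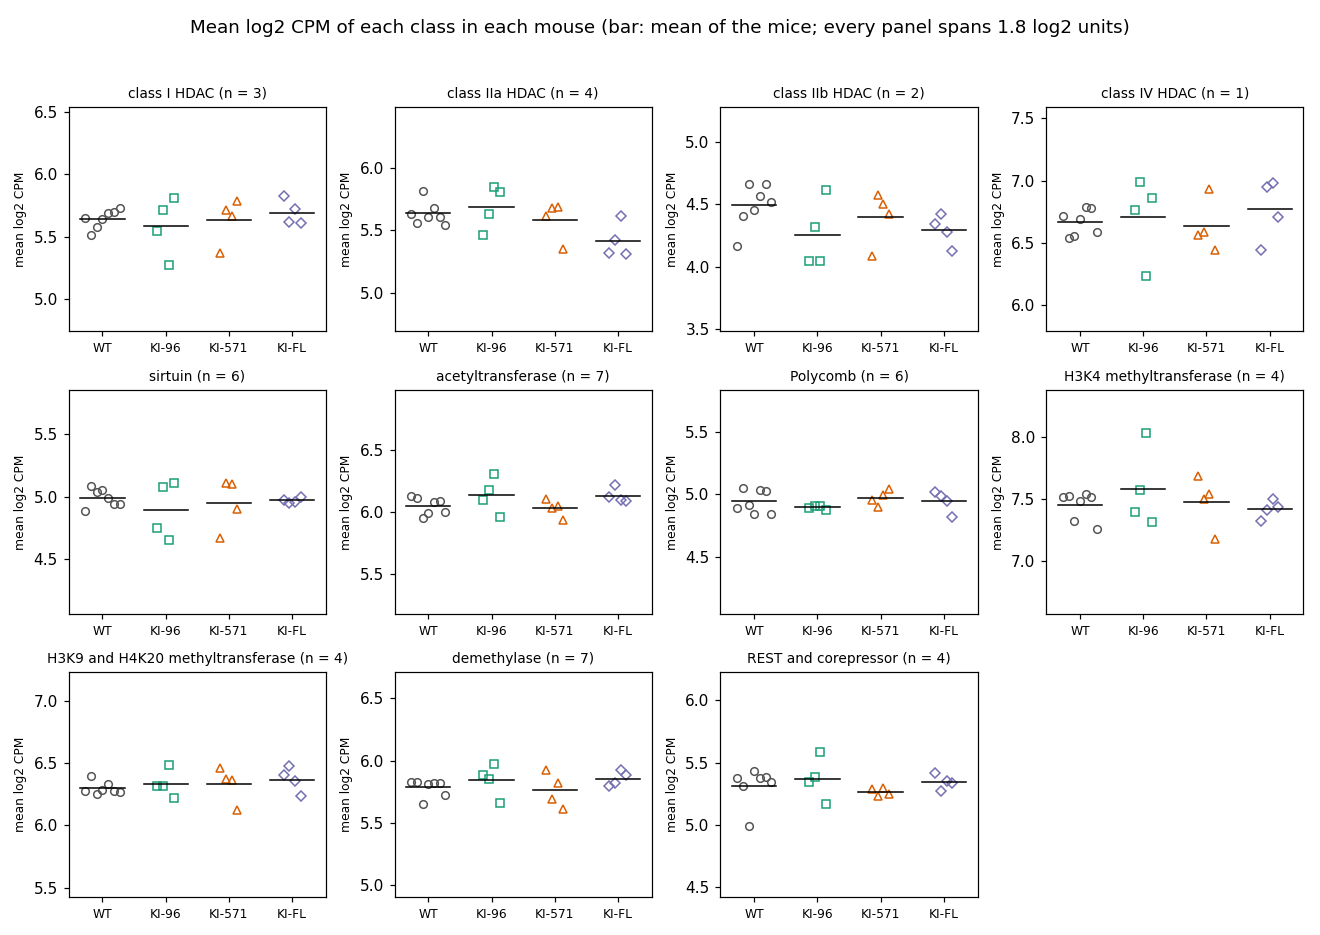
Mean log2 CPM of each enzyme class in each mouse, by genotype, with the mean of the mice as a bar and the same height of axis in every panel. KI-96 replicate 3 is highest for H3K4 methyltransferases at 8.03 and lowest for class I HDACs at 5.28, and genotype means of a class lie close together.

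The KI genotypes were also compared with each other. All KI-96 mice had high Xist and near-absent Y-linked transcripts, while all KI-571 mice had Y-linked transcripts and low Xist. In KI-96 against KI-571, genotype and sex therefore cannot be told apart. In KI-96 against KI-FL the same holds for all KI-FL mice but 1. In KI-96 against KI-571, 3 of 48 genes (6.25%) had an unadjusted p under 0.05, against 5.51% of all genes, and no gene separated the groups, against 2.85% of all genes. These were Ep300, Ncor1 and Hdac9, all higher in KI-96, and none of the 48 was counted without KI-96 replicate 3 or KI-571 replicate 2. The count was 1 without any 1 of WT replicates 3 to 7, KI-571 replicate 4 or KI-FL replicate 2. In KI-96 against KI-FL, 3 of 48 genes (6.25%) were counted against 8.9% of all genes, namely Hdac9, Sirt3 and Hdac2, and no gene separated the groups, against 3.16% of all genes. The count was 1 without KI-FL replicate 4 and 5 without KI-FL replicate 3. In KI-571 against KI-FL, 2 of 48 genes (4.17%) were counted against 8.9% of all genes, namely Rcor1 and Kdm4a, both lower in KI-571. The count was 1 without KI-571 replicate 2 or KI-FL replicate 2 or 4, 4 without KI-FL replicate 1, and 5 without KI-571 replicate 1 or KI-FL replicate 3. Of the 48, Rcor1 alone (2.08%) separated these groups, against 4.32% of all genes. The counts with a mouse left out stand without the share of all genes in the same fit. They are not read as a result about the 48.

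The remaining genes of these pathways were read from lists outside the 48. None of 2 deacetylases and sirtuins, 5 acetyltransferases, 15 methyltransferases, 9 demethylases, 12 Polycomb genes and 9 corepressors had an adjusted p under 0.05 by edgeR in any comparison. At an unadjusted p under 0.05 in KI-FL against WT, 3 methyltransferases, 2 demethylases and 1 Polycomb gene were counted, all with a log2 fold change above 0. These 6 of 52 genes (11.5%) stand beside 16.7% of all genes, of which 1462 were higher and 1637 lower. In KI-96 against WT, 2 Polycomb genes and 1 demethylase were counted (5.77%, against 7.45% of all genes), and in KI-571 against WT 1 methyltransferase (1.92%, against 7.72%), again all above 0. Over all genes, 808 were higher and 572 lower at that level in KI-96, and 720 were higher and 710 lower in KI-571. The direction of these few genes is not read as a result. Of 15 genes known as REST targets in neurons, 2 were higher and 1 was lower at that level in KI-FL (20%, against 16.7% of all genes). In KI-571, 2 were lower (13.3%, against 7.72%), and in KI-96 against WT none was counted (0%, against 7.45%). Their median log2 fold change was 0.03 in KI-FL, -0.10 in KI-571 and 0.09 in KI-96. Beside these values, the Rest log2 fold changes were -0.32, -0.12 and -0.07.

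Chosen after their values were seen, the X-linked demethylases Kdm5c and Kdm6a are given because of the sex markers. Kdm5c was measured at 116 CPM in KI-96 and 76.4 CPM in WT mice, with a log2 fold change of 0.60 ± 0.15 (SE; edgeR, unadjusted p = 0.00046, adjusted p = 0.384). Kdm6a was measured at 45.3 CPM in KI-96 and 31.7 CPM in KI-571 mice, with a log2 fold change of 0.52 ± 0.15 (SE; edgeR, adjusted p = 0.512). The 2 genes are thus given in different comparisons. In KI-96 against WT, Kdm6a did not reach an unadjusted p under 0.05 (edgeR), and Kdm5c was the 1 demethylase of its list that did. Kdm5c and Kdm6a are known to escape X inactivation. Xist averaged 1126 CPM in KI-96, 2.24 CPM in KI-571 and 152 CPM in WT mice. With Xist as a covariate, none of the 48 genes had an unadjusted p under 0.05 in KI-96 against WT or against KI-571. The share of all genes in that fit is not given here. Outside KI-96, Xist was high only in single mice of WT and KI-FL, so the covariate nearly follows the KI-96 genotype. This fit cannot separate sex from genotype, and nothing about sex is concluded from it.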

How the data were processed

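Striatal RNA of 19 mice was sequenced. According to the study's methods, the authors trimmed adapters with BBduk, mapped with STAR to GRCm38 and counted with HTSeq, and the submitters' processing notes name STAR, HTSeq and GRCm38 without versions. The authors deposited raw counts per gene, without normalization. Strand setting and annotation are not given in the sources used here, so counts of overlapping genes and of near-identical copies are uncertain. HTSeq's 5 summary lines were kept out of library sizes and tests; the share of reads on no gene was 11.1% to 24.2%. A further 4 columns belong to none of these mice and were not used. The authors' sacrifice batch and the WT sample they removed are not named in the labels, so all 7 WT mice were kept and no batch term was fitted.

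Groups came from the sample titles. The counts were normalized by TMM, filtered with filterByExpr (minimum count 10, minimum total 15) and fitted over all 19 mice in edgeR 4.0.16 (R 4.3.3). Each genotype had its own coefficient. The quasi-likelihood F-test was applied to 6 comparisons, with Benjamini-Hochberg adjustment over 18521 genes at 0.05. The common biological coefficient of variation was 0.24. Log2 CPM used a prior count of 2, and a class mean is the mean log2 CPM of its genes. Exon lengths and positions were taken from GENCODE on GRCm38, and promoter sequences from RefSeq on GRCm38.p6. P-values set a difference between genotypes against the spread between mice, estimated over all 19 mice. That spread can also hold sex, litter and sacrifice batch, which the main fit did not model. The fit was checked on simulated counts.

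The genes and lists were chosen with earlier results of these data known. Named genes were those with an unadjusted p under 0.01 in any comparison, in each class the gene with the smallest p and that with the highest WT level per kb, and 11 genes fixed by name. Hdac1, Hdac7, Sirt5, Sirt6, Sirt7, Kat5, Ezh1, Kdm1a, Kdm5b, Kmt2c and the genes outside the 48 were named after their values were seen. Alternatives were DESeq2 1.42.0, its size factors in edgeR, other filters, Xist as a covariate, fewer WT mice, only the groups compared, each mouse left out, and a replicate block.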

Additional observations from a re-analysis of the deposited data

Results flagged for a closer look

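In 148 groups of 4 or 7 mice, the highest or lowest mouse was tested by Dixon's criterion, and 10 groups had a mouse far from the others, where chance gives about 7.4 (1 in 20).

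KI-571 replicate 1 stood apart for 3 genes. Its log2 CPM was 2.79 for Hdac10 (3.58 to 3.74 in the other KI-571 mice), 2.79 for Rest (3.21 to 3.27) and 6.34 for Kdm4a (6.07 to 6.09). KI-96 replicate 3 had a log2 CPM of 4.46 for Sirt3, with 4.93 to 4.95 in the rest of that genotype, and 24.16% of its reads lay outside genes, with 11.83% to 12.7% in the rest.

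WT replicate 3 had a mean log2 CPM of 4.99 over REST and its corepressors, against 5.31 to 5.43 in the other WT mice, and a log2 CPM of 4.41 for Rcor1, against 4.86 to 5.12. WT replicate 1 had a log2 CPM of 4.72 for Sirt3, against 5.03 to 5.23. KI-FL replicate 1 had a log2 CPM of 8.05 for Kmt2d, against 8.3 to 8.33. KI-FL replicate 4 had 3186 tested genes at 0 counts, with 134 to 222 in the rest of that genotype. The cause of these values was not tested.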

How the results depend on the processing

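With 4 mice in each KI genotype, the 95% intervals of the log2 fold changes against WT had a median half-width of 0.23. The count at an adjusted p under 0.05 was 0 in every comparison and under every alternative run, except that 1 gene was called in KI-FL against WT under 3 of them. This was Kdm3a with DESeq2 (log2 fold change -0.36, adjusted p = 0.0273, with 509 of 18521 genes called). It was also Kdm3a without WT replicate 3 (-0.40, edgeR, adjusted p = 0.0494), the only WT mouse that overlapped KI-FL mice for this gene. The count over all genes in that fit is not given here, so this call is not weighed. With a model of the compared groups alone it was Sirt7 (-0.36, edgeR, adjusted p = 0.0457, with 336 of 17757 genes called). Over the alternatives the log2 fold change in KI-FL against WT ranged from -0.40 to -0.27 for Kdm3a, 0.23 to 0.36 for Kdm4a, -0.63 to -0.33 for Hdac9 and 0.21 to 0.35 for Ehmt2, and none changed sign. The adjusted p ranged from 0.0273 to 0.702 for Kdm3a, 0.0516 to 0.718 for Kdm4a, 0.0531 to 0.746 for Hdac9 and 0.053 to 0.778 for Ehmt2. Over all genes, DESeq2 called 28, 102, 509, 35, 38 and 88 in the 6 comparisons, in the order used below, and edgeR 5, 6, 36, 1, 0 and 16. Without the filter on low counts the median over all genes in KI-FL against WT moved to -0.18, and that of the 48 genes was 0.02.

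Counts at an unadjusted p under 0.05 moved more, and the cause was not tested. The share of all genes in each fit is not set beside these counts, so they are not read as results about the genes described here. In KI-96 against WT (6 genes), the count was 3 without the filter on low counts, 0 with Xist as a covariate and 1 with WT replicates 1 to 4 only. With 1 mouse left out it ranged from 2 (without KI-96 replicate 3) to 11 (without KI-96 replicate 4), and it was 3 without WT replicate 7, KI-96 replicate 1 or KI-96 replicate 2. In KI-571 against WT (1 gene), it was 0 with WT replicates 1 to 4 only and 2 with only the groups compared, and ranged from 0 to 5 (without KI-571 replicate 4) with 1 mouse left out. In KI-FL against WT (8 genes), it ranged from 7 to 11 with 1 mouse left out, and the adjusted count from 0 to 1. In KI-96 against KI-571 (3 genes), it was 1 with DESeq2 size factors, 0 with Xist as a covariate, 1 with WT replicates 1 to 4 only and 0 with only the groups compared, and ranged from 0 (without KI-96 replicate 3) to 4. In KI-96 against KI-FL (3 genes), it ranged from 1 (without KI-FL replicate 4) to 5 (without KI-FL replicate 3). In KI-571 against KI-FL (2 genes), it was 1 without the filter, with Xist as a covariate and with only the groups compared, and ranged from 1 to 5 (without KI-571 replicate 1 or KI-FL replicate 3). With WT replicates 1 to 4 only and KI-FL replicate 4 left out, chosen after the data were seen, the counts were 1, 0, 2, 1, 1 and 0 in the order above. The Xist covariate nearly follows the KI-96 genotype, so its counts in comparisons with KI-96 cannot separate sex from genotype.

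Same-numbered mice are different animals, and their deviations from the genotype means correlated between -0.13 and 0.29. Differently numbered mice were not compared in this way, so these values cannot say whether the numbers follow a shared batch. The main fit did not pair mice by number. With the replicate block the unadjusted counts were 1 in KI-96 against WT, 0 in KI-571 against WT, 6 in KI-FL against WT and 1 in KI-96 against KI-571, the adjusted counts stayed at 0, and no named fold change crossed the threshold. The share of all genes in that fit is not set beside these counts.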
